A study of Mus musculus with 9 samples.

Results

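Docosahexaenoic acid (DHA) is the polyunsaturated fatty acid that fills the phospholipids of photoreceptor outer segments. The retina makes little of it and has to take it up, activate it and build it into membrane lipid. The genes described here are the adiponectin receptors Adipor1 and Adipor2, the transporter gene Mfsd2a, the acyl-CoA synthetase gene Acsl6, the acyltransferase genes Agpat3 and Lpcat1, and the fatty acid binding protein gene Fabp5. They were chosen by name for these roles, with earlier results of these data known. All 7 were found among the 35397 genes of the deposited table. All 7 were also among the 14588 genes that averaged 1 FPKM or more (fragments per kilobase, scaled to library depth), which were the genes tested.

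RNA was sequenced in 4 db/db retina libraries (db/db 1, 3, 4 and 5) and 5 wild-type retina libraries (wild type 1 to 5). Mice of the db/db genotype carry a defective leptin receptor and develop obesity and diabetes, and the study set the 2 genotypes side by side to ask about gene expression in the diabetic retina. The labels name no treatment, and the sources used here give neither background strain, age nor sex. Whether the 9 libraries are 9 animals is not stated, so the tests see only how these libraries vary, which may be technical.

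As background, AdipoR1 is a membrane protein whose loss in mice lowers retinal DHA and leads to photoreceptor degeneration, while AdipoR2 is its close relative, best known from liver. MFSD2A carries lysophosphatidylcholine with bound DHA across the endothelium of the blood-brain and blood-retinal barriers and into the retinal pigment epithelium. ACSL6 couples DHA to coenzyme A, AGPAT3 places it on lysophosphatidic acid, LPCAT1 acylates lysophosphatidylcholine, and FABP5 carries fatty acids in the cytosol. Mice without working Lpcat1 lose their photoreceptors.

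The libraries were retinal and deep, at 36.6 to 46.1 M recovered reads (M, megareads) in db/db and 43.0 to 47.9 M in wild type. Summed rod markers stood at 10660 to 12150 FPKM in db/db and 10240 to 11020 FPKM in wild type. Markers of neighbouring tissue were higher in some db/db libraries. Summed skeletal muscle markers were 179 FPKM in db/db 1, 6.03 to 20.6 FPKM in the other db/db libraries and 4.22 to 5.88 FPKM in wild type. Summed pigment epithelium markers were 431 FPKM in db/db 1, 89.2 to 213 FPKM in the other db/db libraries and 125 to 201 FPKM in wild type. Summed cornea and ciliary epithelium markers were 288 FPKM in db/db 4, 23.6 to 33.2 FPKM in the other db/db libraries and 10.5 to 29.1 FPKM in wild type. FPKM summed over all genes was 311178.8 in db/db 1 and 252832.0 to 264388.4 in the other db/db libraries. In wild type that sum was 263051.6 to 268138.5. Because db/db 1 stands apart, the log2 change of each gene below is given with and without it. Medians over genes are with all 9 libraries unless stated.

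FPKM were compared as deposited, without scaling the libraries to equal sums. On that scale Lpcat1 was higher in every db/db library than in any wild-type library, and Adipor1 was narrowly higher in all. Mfsd2a was lower in every db/db library than in any wild-type library. The Lpcat1 and Adipor1 values of db/db 1 are thus not adjusted for its larger sum. With all 9 libraries 0 of the 7 genes passed an adjusted p of 0.05 (limma, Benjamini-Hochberg over all tested genes), where 0.500% of tested genes did, while 4 of the 7 had an unadjusted p under 0.05, against 19.3% of tested genes. When db/db 1 was left out, 2 of the 7 passed, where 10.6% of tested genes did: Lpcat1 was higher, as were 4.72% of tested genes, and Mfsd2a was lower, as were 5.84%. Both also passed when values were corrected for transcript GC content in those 8 libraries, where 4.90% of tested genes passed, 2.56% higher and 2.34% lower. With array weights, which give less weight to noisier libraries, 1 of the 7 passed, Lpcat1, where 8.27% of tested genes did. On the same unscaled FPKM the groups did not overlap for 3 of the 7 genes, against 11.6% of tested genes. Of these 2 were higher in db/db, against 5.20% of tested genes, and 1 was lower, against 6.38%. The median log2 change of the 7 was 0.05, and that of all tested genes was 0.0035.

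The 3 genes whose groups did not overlap are shown here by the DNA just before their start, so that the letters can be read beside their values. RefSeq (GRCm38.p6) gave a promoter for 6 of the 7 genes, and for 4 of them a window that lies before the annotated gene. The windows are chr13:73466981-73467196 on the plus strand for Lpcat1, chr1:134415128-134415377 on the plus strand for Adipor1 and chr4:122961189-122961438 on the minus strand for Mfsd2a. Capitals mark matches, on either strand, to CCAAT, to the GC box GGGCGG or to TAATCC, the core that the photoreceptor factor CRX is known to bind.
Lpcat1: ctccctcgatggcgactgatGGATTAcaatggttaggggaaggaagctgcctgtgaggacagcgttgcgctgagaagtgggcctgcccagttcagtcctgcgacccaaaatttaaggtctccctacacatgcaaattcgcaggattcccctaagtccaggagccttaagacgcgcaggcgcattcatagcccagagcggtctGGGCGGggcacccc
Adipor1: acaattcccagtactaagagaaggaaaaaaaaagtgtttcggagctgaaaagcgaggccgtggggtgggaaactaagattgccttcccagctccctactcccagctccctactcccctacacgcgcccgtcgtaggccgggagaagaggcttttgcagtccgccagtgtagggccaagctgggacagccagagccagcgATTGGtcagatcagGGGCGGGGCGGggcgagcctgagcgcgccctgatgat
Mfsd2a: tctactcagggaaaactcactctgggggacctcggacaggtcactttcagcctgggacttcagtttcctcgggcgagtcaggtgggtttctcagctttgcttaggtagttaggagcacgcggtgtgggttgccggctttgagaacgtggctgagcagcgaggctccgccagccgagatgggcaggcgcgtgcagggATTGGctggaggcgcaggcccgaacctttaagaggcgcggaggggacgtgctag
The Lpcat1 window held 1 TAATCC match, as did 5.56% of all promoters at that length, and 1 GC box, as did 27.9%. The Adipor1 window held 1 CCAAT match, found in 33.9% of promoters, and 2 overlapping GC boxes, where 32.7% of promoters held any GC box. The Mfsd2a window held 1 CCAAT match and no GC box. None of the 3 windows held the E box CACGTG or the sterol element TCACNCCAC, which stand in 6.02% and 1.05% of promoters over 250 bases. They also held no match to the spaced direct repeat DR1 of nuclear receptors, found in 0.0335%. The absence of a match says only that these letters are not in these windows.

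Adipor1 (ENSMUSG00000026457, chromosome 1, 134415378 to 134433351, mm10) stood at 129, 119, 119 and 124 FPKM in db/db 1, 3, 4 and 5, against 110, 110, 113, 118 and 108 FPKM in wild type 1 to 5. The lowest db/db library, db/db 4 at 118.8 FPKM, lay just above the highest wild-type library, wild type 4 at 118.0 FPKM. Adipor1 averaged 123 ± 5.02 FPKM in db/db (SD, n = 4) and 112 ± 3.88 FPKM in wild type (SD, n = 5), 9.98% higher in db/db. The log2 change of log2(FPKM + 1) was 0.14 (SE 0.06, 95% interval 0.0062 to 0.27), which did not pass (limma adjusted p = 0.242, and 0.124 to 0.983 over 22 alternatives). It was 0.11 without db/db 1 (adjusted p = 0.124), 0.0039 after quantile normalization and 0.05 in the 8 libraries with GC correction.

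Adipor2 (ENSMUSG00000030168, chromosome 6, 119353150 to 119417704) stood at 17.2, 19.1, 17.7 and 17.7 FPKM in db/db 1, 3, 4 and 5, against 16.8, 16.3, 18.2, 18.2 and 17.1 FPKM in wild type 1 to 5. The groups overlapped through most of their range. Its log2 change was 0.05 (SE 0.06, 95% interval -0.08 to 0.18, adjusted p = 0.677), 0.07 without db/db 1 (adjusted p = 0.415) and -0.01 after quantile normalization. Adipor1 transcripts outnumbered those of Adipor2 per unit length in each library. The ratio of their FPKM was 7.54, 6.24, 6.70 and 7.05 in db/db 1, 3, 4 and 5, against 6.53, 6.79, 6.21, 6.48 and 6.33 in wild type 1 to 5. The ratio averaged 6.88 ± 0.550 in db/db (SD, n = 4) and 6.47 ± 0.221 in wild type (SD, n = 5). An exact two-sided permutation test over all regroupings of the 9 libraries gave p = 0.175 for a log2 difference of 0.09, where the smallest p possible is 0.00794. When db/db 1 was left out the difference was 0.04 (exact permutation p = 0.446), and without db/db 3 it was 0.13 (exact permutation p = 0.0357).

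**Figure D1:**
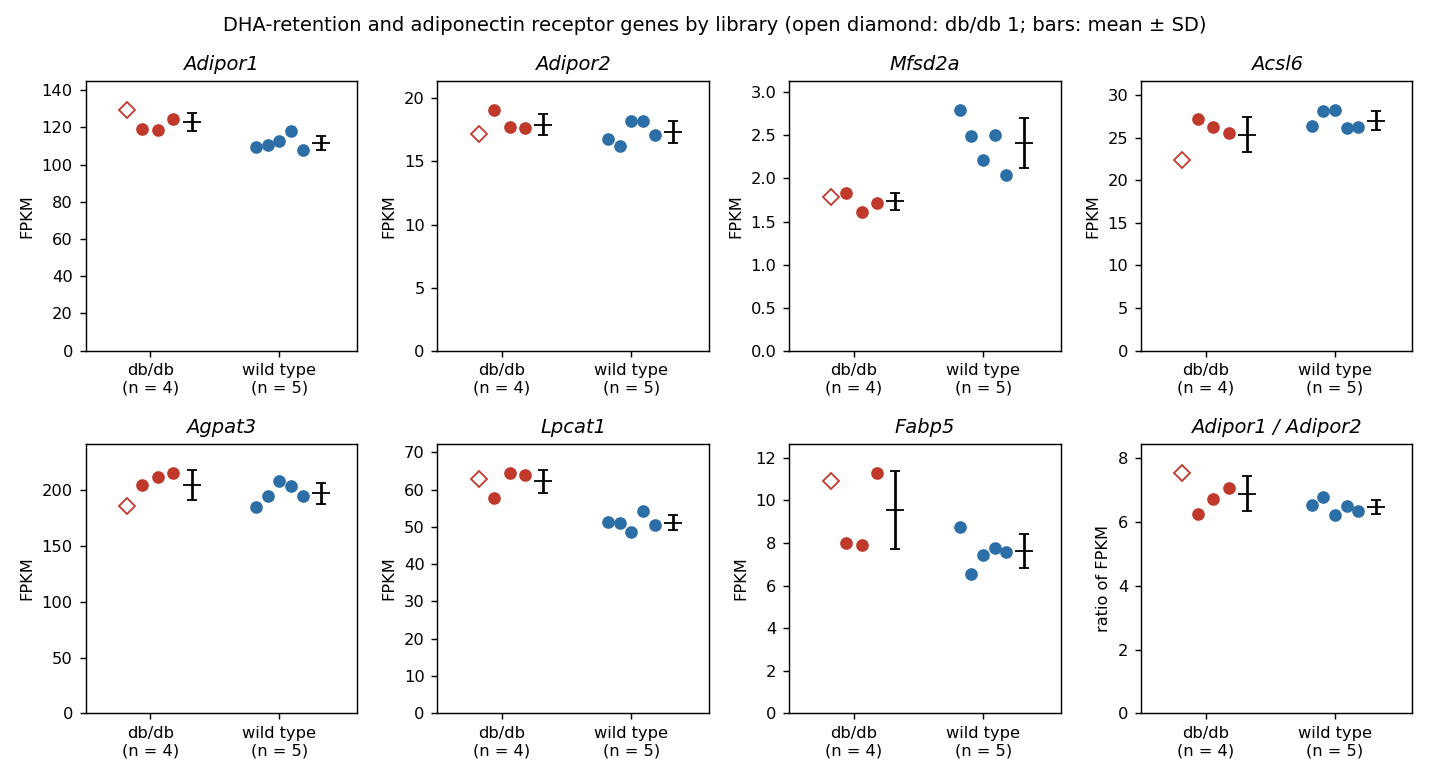
FPKM of the 7 genes in each library, and the ratio of Adipor1 to Adipor2 in the last panel, with db/db left of wild type in each panel, all axes starting at 0, the open diamond for db/db 1 and bars for the mean ± SD. The db/db points lie above all wild-type points for Lpcat1 (57.6 to 64.5 against 48.6 to 54.2 FPKM) and below them for Mfsd2a (1.61 to 1.83 against 2.04 to 2.80 FPKM).

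Mfsd2a (ENSMUSG00000028655, chromosome 4, 122946850 to 122961188) was the least abundant of the 7 genes, at 1.78, 1.83, 1.61 and 1.71 FPKM in db/db 1, 3, 4 and 5, against 2.80, 2.49, 2.21, 2.51 and 2.04 FPKM in wild type 1 to 5. The 4 db/db libraries lay close together and all below wild type 5, the lowest wild-type library. Mean FPKM was 1.73 ± 0.0954 in db/db (SD, n = 4) and 2.41 ± 0.293 in wild type (SD, n = 5), a ratio of 0.719. The log2 change of log2(FPKM + 1) was -0.32 (SE 0.08, 95% interval -0.49 to -0.14, limma adjusted p = 0.0806), and a pseudocount of 1 understates it at this level. The 8 libraries without db/db 1 also gave -0.32, which passed (adjusted p = 0.0363), and GC correction of those 8 gave -0.38 (adjusted p = 0.0290). The adjusted p lay between 0.0290 and 0.428 over 21 alternatives, and the log2 change was negative in all 21.

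Few reads stood behind Mfsd2a, between 141 in db/db 5 and 301 in wild type 1. Taking reads as independent, the 95% counting interval was 1.57 to 2.11 FPKM for db/db 3 and 1.77 to 2.33 FPKM for wild type 5. These nearest libraries thus did not differ beyond counting error, which is all that the interval covers. Of low whole counts 64.9% to 68.7% per library were even, so reads may not be independent and the interval may be too narrow. In bulk RNA a lower level can come from fewer expressing cells or from less RNA in each, and these cannot be told apart. Summed endothelial markers overlapped between the groups: their sum was 26.6 to 36.1 FPKM in db/db and 24.1 to 29.8 FPKM in wild type, 0 of 6 tested were called in either fit, and none of the 7 was at 0 throughout. Mfsd2a came to 4.93% to 6.60% of that sum in db/db and 6.83% to 10.3% in wild type, without overlap. Set against the 9 pigment epithelium markers Mfsd2a came to 0.414% to 1.80% in db/db and 1.39% to 1.69% in wild type. These overlap through db/db 4 alone, at 1.80%, while the other db/db libraries had 0.414% to 0.911%. The part of pigment epithelium RNA in the Mfsd2a values was not tested.

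Acsl6 (ENSMUSG00000020333, chromosome 11, 54303798 to 54364756) stood at 22.4, 27.1, 26.3 and 25.6 FPKM in db/db 1, 3, 4 and 5, against 26.3, 28.1, 28.2, 26.2 and 26.2 FPKM in wild type 1 to 5. The libraries db/db 1 and db/db 5 lay below all of wild type, and the other 2 db/db libraries lay within its range. Its log2 change was -0.09 (SE 0.07, 95% interval -0.24 to 0.06, adjusted p = 0.477) with all libraries and -0.04 without db/db 1 (adjusted p = 0.632). The annotation places the antisense gene Gm12224 over 2.04% of its exon bases, and the sources used here do not say whether counting used strand.

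Agpat3 (ENSMUSG00000001211, chromosome 10, 78269178 to 78352489) was the most abundant of the 7, at 186, 205, 212 and 215 FPKM in db/db 1, 3, 4 and 5, against 184, 195, 208, 203 and 194 FPKM in wild type 1 to 5. The groups overlapped, with db/db 1 next to the lowest wild-type library. Its log2 change was 0.05 (SE 0.07, 95% interval -0.10 to 0.21, adjusted p = 0.697), 0.10 without db/db 1 (adjusted p = 0.227) and -0.02 after quantile normalization.

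Lpcat1 (ENSMUSG00000021608, chromosome 13, 73467197 to 73516422) stood at 62.7, 57.6, 64.5 and 63.8 FPKM in db/db 1, 3, 4 and 5, against 51.3, 51.1, 48.6, 54.2 and 50.4 FPKM in wild type 1 to 5. Every db/db library lay above every wild-type library, db/db 3 being the closest. The mean was 62.2 ± 3.13 FPKM in db/db (SD, n = 4) and 51.1 ± 2.04 FPKM in wild type (SD, n = 5), 21.6% higher in db/db. The log2 change was 0.28 (SE 0.06, 95% interval 0.14 to 0.41, limma adjusted p = 0.0703). The 8 libraries without db/db 1 gave 0.27, which passed (adjusted p = 0.0191), and GC correction of those 8 gave 0.24 (adjusted p = 0.0279). Quantile normalization gave 0.16 (adjusted p = 0.313), and over 22 alternatives, in all of which the log2 change was positive, the adjusted p lay between 0.0177 and 0.428. At 10173 to 13399 reads per library counting error was small beside this difference.

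Rod markers, 6 of 6 tested and none at 0, had a median log2 change of -0.0026, and 1 of them was called without db/db 1. Lpcat1 came to 0.525% to 0.583% of the summed rod markers in db/db and 0.448% to 0.500% in wild type, without overlap. The same share for Adipor1 was 1.02% to 1.20% in db/db and 1.02% to 1.07% in wild type, which overlap.

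Fabp5 (ENSMUSG00000027533, chromosome 3, 10012548 to 10016607) had 10.9, 7.99, 7.91 and 11.3 FPKM in db/db 1, 3, 4 and 5, against 8.77, 6.54, 7.44, 7.76 and 7.56 FPKM in wild type 1 to 5. The libraries db/db 1 and db/db 5 were high, and the other 2 lay within the wild-type range. Its SD was 19.3% of the mean in db/db, the widest of the 7 there, and 10.5% in wild type, where Mfsd2a had 12.2%. Its log2 change was 0.28 (SE 0.12, 95% interval 0.01 to 0.55, adjusted p = 0.246), and 0.21 without db/db 1 (adjusted p = 0.248). Of 7 lens markers, 4 were tested and Lim2 stayed under 0.1 FPKM throughout. Their sum was 110, 19.4, 2.19 and 235 FPKM in db/db 1, 3, 4 and 5, and 1.68 to 115 FPKM in wild type, highest in wild type 5. Their part in the Fabp5 values was not tested. The corneal sum was highest in db/db 4, where Fabp5 was 7.91 FPKM, close to the 7.99 FPKM of db/db 3. The part of corneal RNA in the Fabp5 values was not tested either. The mouse genome holds processed copies of Fabp5, and reads may be shared with them.

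**Figure D2:**
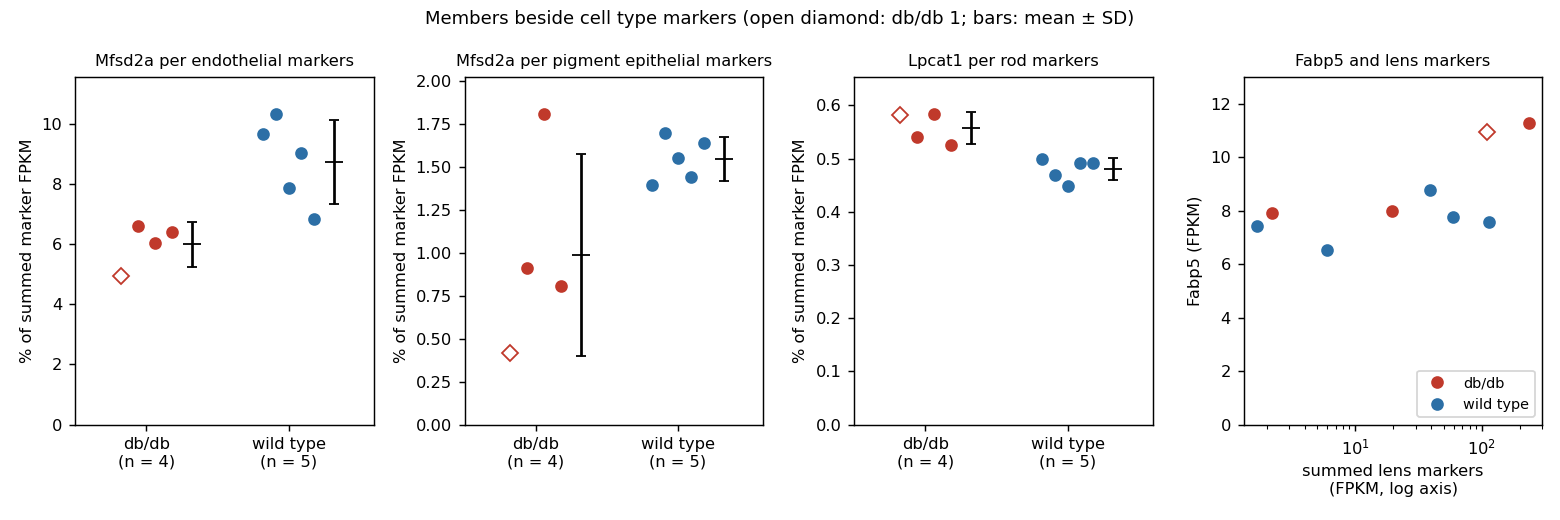
Mfsd2a as a percentage of summed endothelial and pigment epithelium markers, Lpcat1 as a percentage of summed rod markers, and Fabp5 in FPKM against summed lens markers in FPKM on a log axis, with db/db left of wild type in the first panels, 1 point per library, the open diamond for db/db 1 and bars for the mean ± SD. Mfsd2a stays lower in db/db against endothelial markers (4.93% to 6.60%, against 6.83% to 10.3%) and overlaps wild type against pigment epithelium markers.

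In FPKM, which is per length, the order of the levels was the same in each library: Agpat3, Adipor1, Lpcat1, Acsl6, Adipor2, Fabp5 and Mfsd2a. No 2 neighbours in this order overlapped over the 9 libraries at the lengths used. The closest were Acsl6 (22.4 to 28.2 FPKM) and Adipor2 (16.3 to 19.1 FPKM). Of the tested genes 0.686% had a higher mean than Agpat3, 1.49% than Adipor1, 4.05% than Lpcat1 and 82.6% than Mfsd2a. The values fit a length that joins all annotated exons. That length was 9914 bases for Acsl6, against 2297 bases for its transcript Acsl6-201, and 3567 bases for Fabp5, against 987 bases for its coding transcript Fabp5-201. Joined exons were thus 4.32 times as long for Acsl6 and 3.61 times as long for Fabp5, at most 1.61 times as long for the other 5 genes, and the places of Acsl6 and Fabp5 in the order rest on that length.

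**Figure D3:**
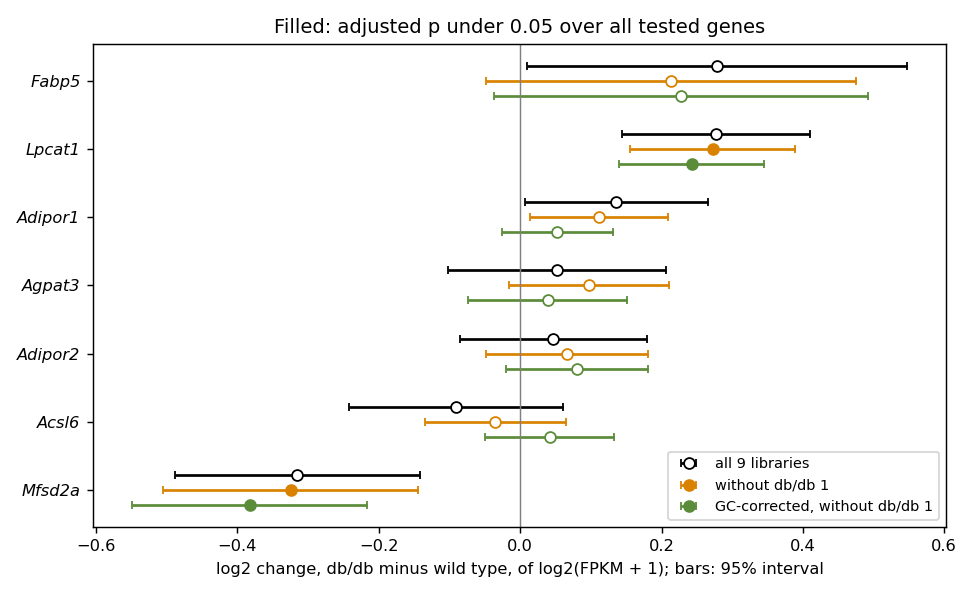
The log2 change of each gene, db/db minus wild type on log2(FPKM + 1), with its 95% interval in 3 fits, filled where the adjusted p is under 0.05 over all tested genes. Lpcat1 (0.28, 0.27 and 0.24) and Mfsd2a (-0.32, -0.32 and -0.38) are filled in both fits without db/db 1 and open with all 9 libraries.

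For each gene the tested genes with the highest Pearson r of log2(FPKM + 1) over the 9 libraries were Pgd (r = 0.988) and Ddx49 (r = 0.983) for Adipor1, and Urb2 (r = 0.863) and Mok (r = 0.854) for Adipor2. They were Nptn (r = 0.953) and Pot1b (r = 0.946) for Mfsd2a, Phf20 (r = 0.972) and Plxnc1 (r = 0.961) for Acsl6, and Vwa8 (r = 0.924) and Nup188 (r = 0.920) for Agpat3. Lpcat1 was closest to Klc2 (r = 0.985) and Ptk7 (r = 0.967), and Fabp5 to Cbarp (r = 0.974) and Sema3b (r = 0.965). Spearman's rho of these pairs lay between 0.767 (Mok) and 1.0 (Ddx49). Without the 2 libraries farthest from the median of the gene, r lay between 0.659 (Mok) and 0.981 (Klc2). Each pair was picked as the highest among all tested genes and its values share libraries and scaling, so these are descriptions with no p.

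The other genes of the pathway were taken from 12 lists with 170 genes, of which 167 were in the table and 131 were tested. None passed with all 9 libraries (limma), while 29 had an unadjusted p under 0.05, where 19.3% of all tested genes did, and the median log2 change was 0.0091. In the 8 libraries without db/db 1, 4 were higher, where 4.72% of tested genes were, and 6 lower, where 5.84% were. After GC correction of those 8, 5 of the 131 passed, where 4.90% of all tested genes did.

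Around the receptors, 0 of 14 tested genes of adiponectin signalling passed with all libraries. The median log2 change was -0.06, and -0.0093 without db/db 1. Appl1, the adaptor that binds the receptors, averaged 9.32 ± 0.878 FPKM in db/db (SD, n = 4) and 11.3 ± 0.220 FPKM in wild type (SD, n = 5), without overlap (log2 change -0.26, limma adjusted p = 0.0913). When db/db 1 was left out, Appl1 fell by 0.27 on the log2 scale (adjusted p = 0.0324), while its relative Appl2 rose by 0.23 (adjusted p = 0.0129), against 0.16 with all libraries (adjusted p = 0.287). After GC correction of those 8 libraries Appl2 passed (adjusted p = 0.0227) and Appl1 did not (adjusted p = 0.105). Stk11, which encodes the kinase that activates AMPK, showed 0.23 on the log2 scale (adjusted p = 0.190), and 0.15 without db/db 1. After GC correction of those 8 libraries Stk11 showed 0.04. The ligand gene Adipoq reached at most 0.126 FPKM in db/db and 0.0318 FPKM in wild type and was not tested.

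Among 13 tested PPAR alpha targets and fatty acid oxidation genes 0 passed with all libraries. Their median log2 change was 0.15, and 0.06 without db/db 1. The mitochondrial carrier gene Ucp2 showed 0.34 on the log2 scale (adjusted p = 0.155), and 0.25 without db/db 1. Cpt1a, a carnitine palmitoyltransferase gene, passed without db/db 1 (0.27, adjusted p = 0.0158) but had 0.09 with all libraries (adjusted p = 0.749). After GC correction of those 8 libraries it also passed (0.26, adjusted p = 0.0227). Its partner Cpt2 went the other way, with -0.13 in all libraries (adjusted p = 0.458) and -0.22 without db/db 1 (adjusted p = 0.0526). After GC correction of those 8 libraries Cpt2 passed (-0.25, adjusted p = 0.0412). Of 8 tested PAQR genes, the family of the adiponectin receptors, 0 passed, with the progestin receptor genes Paqr6 and Paqr7 at 0.37 and 0.22 (adjusted p = 0.114 and 0.290), and at 0.28 and 0.11 without db/db 1. Mmd, a further member, fell by 0.42 when db/db 1 was left out (adjusted p = 0.0211), and had -0.24 with all libraries (adjusted p = 0.416). It also passed after GC correction of those 8 libraries (-0.35, adjusted p = 0.0338). AdipoR proteins are known to have ceramidase activity. Of 16 tested ceramide genes 0 passed with all libraries. The ceramide synthase gene Cers4 had -0.12 (adjusted p = 0.226), also -0.12 without db/db 1, and -0.02 after GC correction of those 8 libraries. The sphingomyelinase gene Smpd2 had 0.39 (adjusted p = 0.188) with all libraries and 0.22 (adjusted p = 0.0429) without db/db 1, and after GC correction of those 8 libraries it did not pass (0.15, adjusted p = 0.145).

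On the side of uptake and activation, 0 of 13 tested uptake genes passed with all libraries, and 0 without db/db 1. After GC correction of those 8 libraries the lipoprotein receptor gene Vldlr passed (0.18, adjusted p = 0.0430). Vldlr had -0.0069 with all libraries (adjusted p = 0.971) and 0.08 without db/db 1 (adjusted p = 0.299). The fatty acid transporter gene Slc27a4 had 0.15 (adjusted p = 0.312), 0.08 without db/db 1 and -0.0053 after GC correction of those 8 libraries. Of 8 tested acyl-CoA synthetase and acyl-CoA binding genes 0 passed, and 6 had a negative log2 change, with all libraries. The relative of Acsl6 that prefers arachidonate, Acsl4, had -0.28 (adjusted p = 0.149), and -0.24 without db/db 1. After GC correction of those 8 libraries Acsl4 had -0.05 (adjusted p = 0.685). The peroxisomal acyl-CoA binding gene Acbd5 had -0.20 (adjusted p = 0.147), -0.16 without db/db 1 and -0.02 after GC correction of those 8 libraries. Of 3 tested binding protein genes 0 passed. Fabp3, the form abundant in muscle, had 0.38 (adjusted p = 0.386) with all libraries and 0.12 without db/db 1. It stood at 53.0, 23.6, 21.1 and 33.6 FPKM in db/db 1, 3, 4 and 5, against 20.8 to 26.5 FPKM in wild type. The part of muscle RNA in these values was not tested. Fabp4, the adipocyte form, had 0.29 with all libraries and 0.10 without db/db 1.

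Of 14 tested relatives of Agpat3 and Lpcat1, 0 passed with all libraries. Lpgat1, an acyltransferase for lysophospholipids, averaged 27.0 ± 4.35 FPKM in db/db (SD, n = 4) and 34.4 ± 1.31 FPKM in wild type (SD, n = 5), without overlap (log2 change -0.35, adjusted p = 0.112). Lclat1, which remodels cardiolipin, had -0.36 (adjusted p = 0.125), likewise without overlap. In the 8 libraries without db/db 1, Lpgat1 fell by 0.25 (adjusted p = 0.0392) and Lclat1 fell by 0.24 (adjusted p = 0.0257), while after GC correction of those 8 neither passed (adjusted p = 0.0907 for Lpgat1 and 0.0691 for Lclat1). Of 13 tested genes of head group synthesis 0 passed with all libraries. The ethanolamine kinase gene Etnk1 had -0.22 (adjusted p = 0.147), -0.16 without db/db 1 and -0.04 after GC correction of those 8 libraries. The choline phosphotransferase gene Chpt1 had -0.23 (adjusted p = 0.25), and it fell by 0.31 without db/db 1 (adjusted p = 0.0335), a call lost after GC correction of those 8 libraries (-0.12, adjusted p = 0.336).

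Synthesis, release and membrane handling gave 0 calls with all libraries in 12, 8 and 10 tested genes. The desaturase gene Fads1 had -0.15 (adjusted p = 0.221), and -0.16 without db/db 1. Pnpla2, a lipase and receptor of pigment epithelium-derived factor, averaged 9.60 ± 1.50 FPKM in db/db (SD, n = 4) and 7.21 ± 0.269 FPKM in wild type (SD, n = 5), without overlap (log2 change 0.36, adjusted p = 0.0895; 0.29 and 0.0456 without db/db 1, and 0.21 and 0.106 after GC correction of those 8 libraries). Serpinf1, the gene of that factor, had 0.25 (adjusted p = 0.198), and 0.21 without db/db 1. Hsd17b12, an elongation enzyme gene, had -0.05 with all libraries (adjusted p = 0.799), -0.17 without db/db 1, which passed (adjusted p = 0.0487), and -0.11 after GC correction of those 8 libraries, which did not (adjusted p = 0.165). In the disc membrane list the lipid flippase gene Atp8a2 had -0.27 (adjusted p = 0.141), and -0.20 without db/db 1. Rp1, which aligns outer segment discs, had -0.31 (adjusted p = 0.197), -0.19 without db/db 1 and 0.0090 after GC correction of those 8 libraries. Among the genes of DHA-derived mediators, the lipoxygenase genes Alox5, Alox12 and Alox15 each averaged under 1 FPKM and were not tested.

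**Figure D4:**
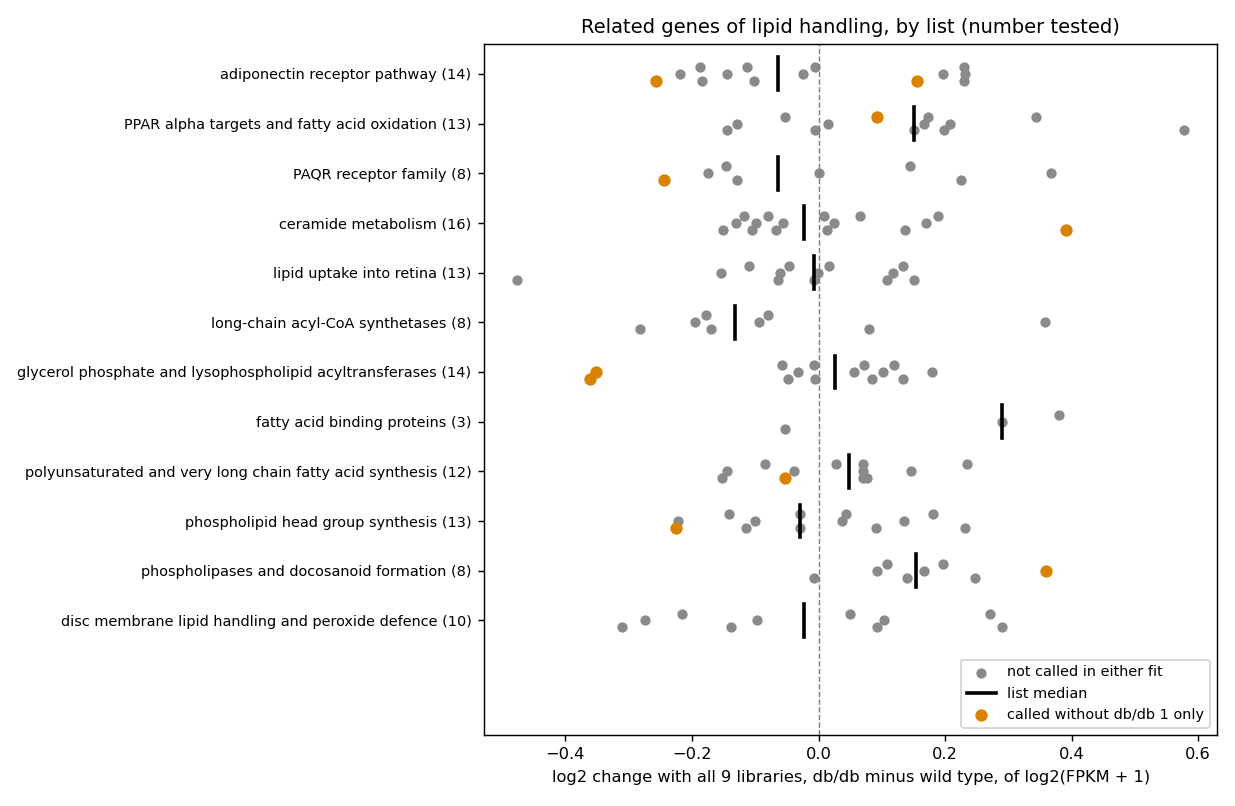
The log2 change with all 9 libraries, db/db minus wild type on log2(FPKM + 1), of each tested gene in 12 lists, with bars for list medians and orange points for genes called only without db/db 1. Medians lie between -0.13 (acyl-CoA synthetases) and 0.29 (binding proteins, 3 genes), and 10 points are orange. Without db/db 1 the medians of these lists were -0.15 and 0.10.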

How the data were processed

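The authors' deposited file holds FPKM for 35397 genes in 9 libraries. Per the labels' protocols, 1.3 ug of column-purified total RNA went into each SMARTER library. The submitters' processing notes name mm10; the sources used here name no aligner, counter, strand setting or annotation. Columns called Control or DR were paired by number with the wild-type and db/db samples, an inference from their names. Symbols and exons came from GENCODE M21 (34499 identifiers matched), and promoters from RefSeq.

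FPKM times joined exon length moved in steps of 1 read, with 99.0% to 99.2% of low values whole within 0.1 read, which gave the depth.

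Genes averaging 1 FPKM or more were tested as log2(FPKM + 1) in limma 3.58.1 (R 4.3.3; linear model, moderated with an intensity trend, no covariate), with Benjamini-Hochberg adjustment over 14588 genes at 0.05. The steps were tested on simulated data. The ratio was tested by exact permutation. Alternatives were a pseudocount of 0.1, no filter or one at 5 FPKM, moderation without trend or robust, 3 scalings, array weights, a replicate block, GC correction in 20 bins, voom on recovered reads, and leaving out each library.

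The members, the lists and the naming rule (2 genes of smallest p in a list where fewer pass) were chosen with earlier results of these data known. List genes called without db/db 1 that the rule does not name, and Cpt2, Vldlr, Adipoq, Alox5, Alox12 and Alox15, were picked after their values were seen. Some genes that the rule names are not reported here.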

Additional observations from a re-analysis of the deposited data

Results flagged for a closer look

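In 58 groups of 4 or 5 libraries, values standing far outside their own group were looked for, where chance flags about 1 in 20. The db/db 1 library was far from the other db/db libraries for Smpd2, at 19.2 FPKM against 10.8 to 12 FPKM. It was also high for Slc27a4, at 22.8 FPKM against 18.3 to 19.1 FPKM. None of the 7 genes of the report, nor the ratio of Adipor1 to Adipor2, had such a value.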

How the results depend on the processing

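With all 9 libraries 73 genes passed; the count was 9 without a filter, 30 with a filter at 5 FPKM, 36 after scaling to equal sums, 1206 with array weights, 6 with GC correction, 715 with GC correction of the 8 libraries without db/db 1, and 110 with voom on recovered reads. Leaving out 1 library gave 4 to 1540 genes, the highest without db/db 1 and 4 to 13 without any other. After scaling to equal sums 58.3% of calls were higher in db/db, against 46.6% as reported. Of the 7 genes 0 passed as reported, 1 with array weights, 2 with GC correction of the 8 libraries, and 0 to 2 when 1 library was left out. The labels do not say whether replicate numbers pair the samples. The correlations of same-numbered libraries were 0.04, 0.05, -0.18 and 0.13, and only db/db 5 correlated best with its own number. These values show no sign of pairing but cannot exclude it. With the replicate number as a block 2 genes passed, 0 of them among the 7, and the log2 ratio of Adipor1 to Adipor2 differed by 0.105 (exact sign-flip p = 0.125, the smallest possible). That difference was 0.0422 to 0.133 with 1 library left out, and 0.133 without db/db 3 (exact permutation p = 0.0357). The log2 change turned to -0.0109 for Adipor2 and -0.023 for Agpat3 after quantile normalization, to -0.0266 for Agpat3 with GC correction, and to 0.0419 for Acsl6, -0.0053 for Slc27a4 and 0.0090 for Rp1 with GC correction of the 8 libraries; none of these passed, and the cause was not tested. A filter at 5 FPKM removes Mfsd2a. Depth limits Mfsd2a most, with 141 reads in its smallest library.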
